A study of Mus musculus with 4 samples.

Results

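Activated conventional CD4 T cells were picked out by their transcripts among the viable cells of dissociated mouse lung tumors. A cell was counted as a member when it carried at least 1 unique molecular identifier (UMI, a tag that marks 1 captured RNA molecule) of the Cd3d, Cd3e and Cd3g genes together, at least 1 of Cd4, none of Cd8a, Cd8b1 or Foxp3, and a sum of at least 2 over Icos, Pdcd1, Cxcr6 and S100a4. Cells with a UMI of the B cell gene Cd79a or with more than 2 UMIs of the macrophage genes C1qa, C1qb and C1qc were left out. Only cells with at least 200 genes and at most 13.4% mitochondrial UMIs were considered. The rule found 265 members among 19892 filtered cells, which is 1.33% (95% interval 1.18 to 1.5, exact binomial) of them. With the same Cd79a and C1q limits applied to these T cells, members made up 5.24% of 5062 T cells and 42.3% (38.4 to 46.3) of the 626 conventional CD4 T cells, meaning Cd4-positive T cells with no Cd8 or Foxp3 UMI.

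The cells came from 4 female mice with tumors grown for 16 weeks after lentiviral Cre delivery to the airways. All 4 mice carried KrasLSL-G12D, an oncogene switched on by Cre, with Lkb1XTR/XTR, an allele of the tumor suppressor gene Stk11 (LKB1) that Cre switches off, and Rosa26LSL-tdTomato, a red reporter of Cre activity. The 2 Restored mice also carried FLPo-ERT2, a tamoxifen-dependent recombinase that switches Lkb1 back on and that the 2 Non-Restored mice lacked, and all received tamoxifen in 4 mg doses for 2 weeks. Cre came from an airway virus, and the labels do not give which alleles, if any, were recombined in T cells. The authors report raised Lkb1 in every cell compartment of Restored tumors, which they ascribe to excision of the XTR insert. The deposited counts form 1 matrix of 20351 cells without a map from cells to mice. Restored and Non-Restored mice therefore could not be compared, the matrix counts as 1 sample without replicates, and no test or p-value is given. Cell barcodes shared between libraries were not counted, since the columns used here carry none. Intervals are exact 95% intervals that cover counting error only. They leave out the spread between mice and between cells, and a difference between cell groups cannot be told apart from unequal contributions of the 4 mice.

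CD4 T cells recognise peptides on MHC class II molecules and steer other immune cells through secreted cytokines and surface ligands. Naive CD4 cells circulate through lymphoid organs with the homing receptor Ccr7, while cells that have met antigen lose it, enter tissues such as the lung and take on helper programs. Th1 cells make interferon gamma, Th2 cells follow the factor GATA3, Th17 cells make IL-17 under nuclear receptors such as ROR alpha, follicular helper (Tfh) cells assist B cells, and regulatory T cells restrain the others through FOXP3. The gene lists for these programs were chosen with earlier results of these data known, so counts over them are descriptions.

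The members held 693214 UMIs in all. Their depth ran from 658 to 12571 UMIs per cell with a median of 2035, and the median cell had 895 detected genes. They were set against 103 naive-like CD4 cells (no UMI of the 4 entry genes and at least 2 UMIs over a set of naive T cell genes that holds Ccr7 and Lef1; median 1581 UMIs), 61 Foxp3 CD4 cells (median 2688), 105 activated CD8 cells gated on the same entry sum (median 2293) and all 19627 other filtered cells. A further 949 B cells (median 1598 UMIs) gave the background expected of a gene that a cell type lacks. Of 5278 filtered cells with a Cd3 UMI, 732 had a Cd4 UMI, 701 of those had no Cd8 UMI, 639 also had no Foxp3 UMI, and 271 of these reached the entry sum. The Cd79a and C1q steps then removed 1 and 5 cells. Cd4 itself was thinly captured: 202 members had 1 Cd4 UMI, 46 had 2 and 17 had 3 or 4. A larger set of 3329 Cd3 cells showed no Cd4, Cd8 or Foxp3 UMI, and 1343 of them reached the entry sum, and the rule leaves these cells outside the members whatever their lineage.

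The label was checked against T cell genes that the rule did not use. A UMI of the alpha-beta receptor constant genes Trac, Trbc1 or Trbc2 was present in 241 of 265 members, or 90.9% (86.8 to 94.1). A UMI of the gamma-delta constant genes Trdc, Tcrg-C1, Tcrg-C2 or Tcrg-C4 was present in 11, and 1 of those had no alpha-beta UMI. Cd28, the costimulatory receptor of T cells, was at 304 CPM (counts scaled to 1000000 UMIs per group) in members and 6.13 CPM in B cells. Cd44, a surface marker of antigen-experienced T cells, was at 306 CPM in members and 55.6 CPM in naive-like cells. These values go with the label. The invariant NKT receptor segment Trav11 had 0 UMIs in the members, which with a limit of 3 UMIs allows up to 4.33 CPM. It was also at 0 in the naive-like, Foxp3, CD8 and B cells described below, so this 0 cannot tell whether NKT cells were among the members.

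The entry genes chose the members, so their values describe the rule. Icos, a costimulatory receptor induced on T cell activation, had a UMI in 207 members (78.1%) and 452 UMIs in all. S100a4, a calcium-binding protein abundant in effector and memory T cells, was detected in 205 members (77.4%) with 657 UMIs, 49% of the entry UMIs. Cxcr6, a chemokine receptor of tissue T cells, was detected in 87 members (32.8%) and Pdcd1, which encodes the inhibitory receptor PD-1, in 58 (21.9%). The most common combination was Icos with S100a4 alone (78 members), followed by Icos, Cxcr6 and S100a4 (42) and Icos alone (36). Only 8 members showed all 4 genes, and 61 entered on a single gene. Without S100a4 81 members would have missed the sum, against 66 without Icos, 10 without Cxcr6 and 7 without Pdcd1. Membership thus rested mostly on Icos and S100a4, and S100a4 also had 68.4 CPM in B cells, of which 27 of 949 reached the entry sum.

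**Figure D1:**
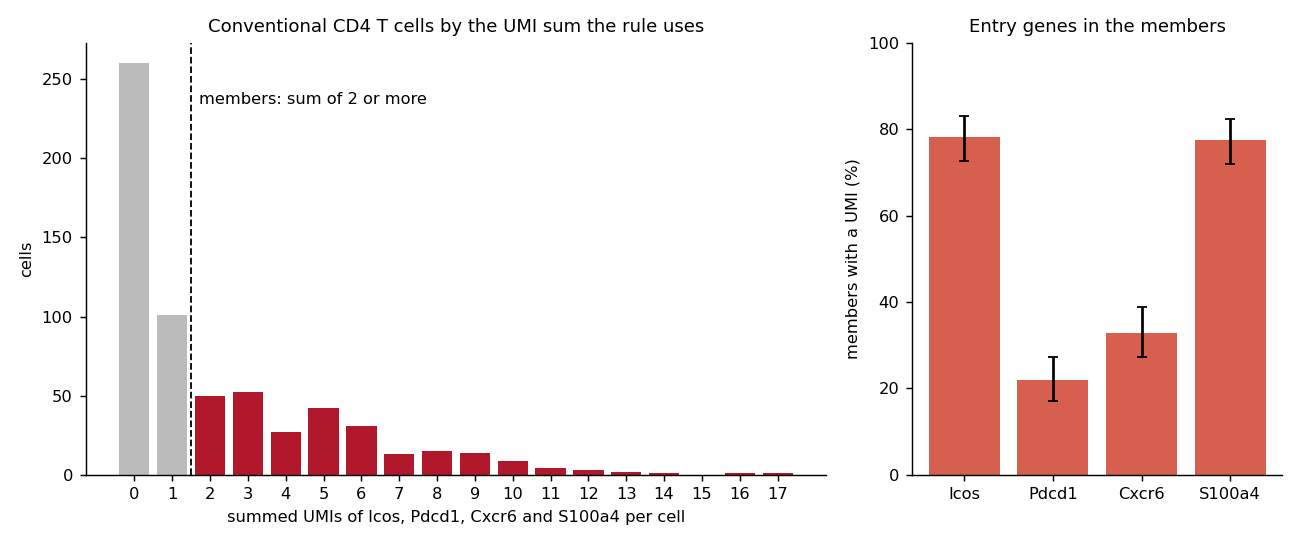
Left, number of conventional CD4 T cells (y axis) at each sum of UMIs of Icos, Pdcd1, Cxcr6 and S100a4 (x axis), with members in red to the right of the dashed line. Right, share of the 265 members with a UMI of each entry gene, with exact binomial 95% intervals; Icos and S100a4 were each seen in over 77% of members and Pdcd1 in 21.9%.

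The entry sum had a median of 5 and reached 17, with no gap at the threshold: 260 conventional CD4 cells were at 0, 101 at 1, 50 at 2, 52 at 3 and 27 at 4. The cells just outside and just inside differed in several genes that the sum does not contain, given here without a test. Ccr7 was at 219 CPM in cells with a sum of 1 and at 46.7 CPM in cells with a sum of 2, against 358 CPM at 0 and 36.7 CPM at 5 or more. Igfbp4, a gene of naive T cells, was at 187 CPM just outside and 28 CPM just inside. S100a6, another calcium-binding protein of effector cells, was at 529 CPM at 0, 1800 CPM just outside, 1900 CPM just inside, 2910 CPM at 3 or 4 and 3490 CPM at 5 or more. Maf, a transcription factor of helper cells, went from 229 to 355 CPM across the threshold. The IL-17 gene Il17a was at 0 CPM at a sum of 1, 46.7 at 2, 214 at 3 or 4, and 355 at 5 or more. Cells with a sum of 1 lay between the cells at 0 and the members in S100a6, Ccr7 and Igfbp4.

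The next comparison asked which genes separated members from naive-like cells. Members had higher transcripts of helper regulators (Rora, Maf) and IL-17 genes (Il17a, Il17f). Genes of activation and inhibition (Cd44, Tnfrsf4, Ctla4, Cd200) and S100 and cytoskeletal genes (S100a6, Lgals1, Vim) were also higher. Genes tied to naive cells (Igfbp4, Dapl1, Tcf7, Satb1, S1pr1) were lower. A ratio of 2-fold or more, after adding 10 CPM to each group, was counted as a call. Genes at 50 CPM or more in either group and outside the gating genes were compared. A gene with few or no UMIs in the other group enters only by reaching 50 CPM in members. The minimum then fixes its call. Counts of higher calls per list, and the share over all genes, hold such genes and are descriptions. Of 2837 genes compared, 547 (19.3%) were called higher and 92 (3.24%) lower in members, and the median log2 ratio over all genes was 0.39. This tilt depended on scaling. Ribosomal protein genes took 30.9% of the UMIs of members and 43.9% of those of naive-like cells, and 74 of 79 such genes had ratios below 0. With TMM scaling, which sets the bulk of genes level, every ratio was 0.28 lower on the log2 scale, 319 genes were higher and 176 lower, and the higher share of the calls went from 85.6% to 64.4%.

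**Figure D2:**
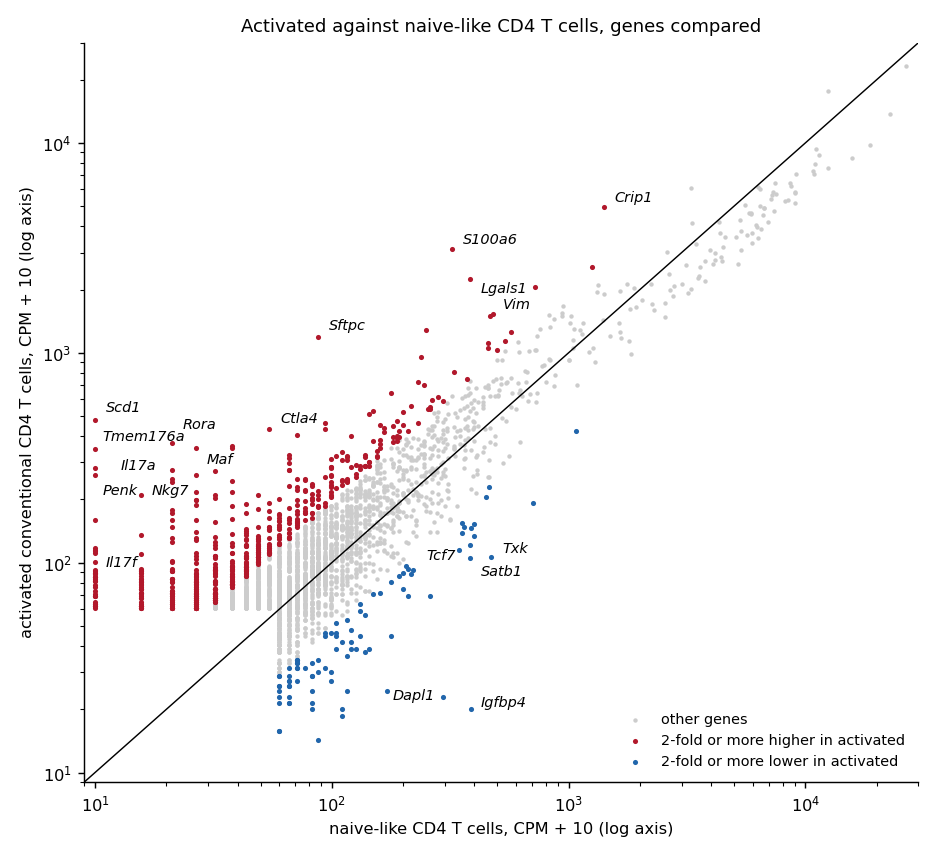
CPM plus 10 of each compared gene in naive-like CD4 T cells (x axis) and activated conventional CD4 T cells (y axis), on log axes with the line of equality. Red points are 2-fold or more higher in activated cells (547 genes) and blue points 2-fold or more lower (92 genes); Il17a, Tmem176a and Penk stand at the left edge, where naive-like cells had 0 UMIs.

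Genes of naive and resting T cells were lower or level. Of 10 compared members of this list, 6 were called lower and 0 higher, beside 3.24% lower over all genes, with a median log2 ratio of -1.38. Igfbp4 had 7 UMIs in 7 members (10.1 CPM, 4.06 to 20.8) and 68 UMIs in naive-like cells (378 CPM, 294 to 479), a log2 ratio of -4.27. Dapl1, a gene of naive T cells, was at 13 against 284 CPM (log2 ratio -3.67). Tcf7, the factor TCF1 that maintains naive and memory T cells, was at 111 against 373 CPM (-1.66), and Satb1, a chromatin organiser of T cells, at 95.2 against 373 CPM (-1.86). S1pr1, the receptor that lets T cells leave tissues, was at 128 against 345 CPM (-1.36), and Cd27, a costimulatory receptor of naive and memory cells, at 64.9 against 189 CPM (-1.41). Klf2, the factor that drives S1pr1, missed the call at 289 against 517 CPM (-0.82), as did the IL-7 receptor gene Il7r at 574 against 717 CPM (-0.32). Among the genes with the lowest ratios outside that list were Actn1, which encodes the actin cross-linker alpha-actinin (14.4 against 161 CPM), Txk, a Tec family kinase downstream of the T cell receptor (96.7 against 461 CPM), and Socs3, an inhibitor of cytokine signaling (59.1 against 250 CPM). The remainder of the 15 lowest were Pdlim4, Gpr18, Pik3ip1, Pim2, Dirc2, Zfp281, Cd55, Gpr146, Vipr1 and Itga6, with 3 to 24 UMIs each in members, 9 to 30 in naive-like cells and log2 ratios from -2.62 to -1.88.

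Receptors of activation were mostly higher. In the activation and costimulation list 8 of 12 compared genes were called higher and 0 lower, beside 19.3% higher over all genes, with a median log2 ratio of 1.28. Cd44 had 212 UMIs in members and 10 in naive-like cells, a log2 ratio of 2.27 (interval of the unadjusted ratio 1.55 to 3.54). The TNF receptor family members Tnfrsf4 (OX40) and Tnfrsf18 (GITR) were at 199 against 38.9 CPM and 228 against 72.3 CPM. Il2ra, the high-affinity IL-2 receptor chain, had 74 UMIs in 47 members and 0 in naive-like cells. It was at least 6.4-fold higher, taking 3 UMIs over the group as the limit of a zero. The 50 CPM minimum fixed the call of Il2ra. Cd28 and the early activation marker Cd69 were level, at 304 against 300 CPM and 260 against 267 CPM. A list of inhibitory receptors and genes linked to inhibition had 4 compared genes, of which 3 were called higher. Only Ctla4, which competes with CD28 for its ligands, encodes such a receptor, at 424 against 44.5 CPM. Cd200, an immunoglobulin-family ligand, was at 188 against 16.7 CPM, where the 50 CPM minimum fixed the call. The ectonucleotidase gene Nt5e (CD73) was at 123 against 22.2 CPM. The inhibitory receptor gene Lag3 was at 41.8 CPM in members, below that minimum. Tox, a factor linked to chronic stimulation, was at 205 against 117 CPM, below the call.

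Structural and residency genes were mostly higher as well. In the S100, annexin and cytoskeleton list 13 of 20 compared genes were called higher and 0 lower, beside 19.3% higher over all genes here and for the lists that follow, with a median log2 ratio of 1.37. S100a6 had 2146 UMIs in 197 members (3100 CPM, 2970 to 3230) and 56 UMIs in 10 naive-like cells (311 CPM, 235 to 404). Lgals1, the lectin galectin-1, was at 2240 against 373 CPM, and Vim, the intermediate filament vimentin, at 1520 against 467 CPM. In the tissue residency list 7 of 9 were called higher, among them Rgs1, a brake on chemokine receptor signaling (189 against 16.7 CPM), Bhlhe40, a factor needed by cytokine-producing T cells (349 against 27.8 CPM), and Runx3, a factor of tissue-resident lymphocytes (130 against 16.7 CPM). The 50 CPM minimum fixed the calls of Rgs1 and Runx3, and of Ahr and Rgs16, seen in 1 and 0 naive-like cells. Itgae (CD103), the integrin of T cells held in epithelium, was caught in only 20 members at 34.6 CPM. Of the chemokine receptor and integrin list 6 of 12 were called higher. Ccr2, a receptor for entry into inflamed tissue, was at 67.8 CPM in members and had 0 UMIs in naive-like cells. The integrin chain Itgb1 was at 391 against 111 CPM. The minimum fixed the calls of Ccr2, of Ccr6, seen in 0 naive-like cells, and of Cxcr3, seen in 1.

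Cytokine genes were mostly higher and glycolysis genes in part. Of 9 compared genes for secreted cytokines and ligands, 8 were called higher and 0 lower, beside 19.3% over all genes here and for the other lists of this paragraph, with a median log2 ratio of 1.8. The 8 include the chemokine gene Ccl5, of which 1 cell held 41 UMIs. Without that cell Ccl5 was at 42.1 CPM in members, short of a call. Tnfsf8, the ligand of CD30, had 360 UMIs in 124 members (519 CPM, 467 to 576) and 25 UMIs in naive-like cells (139 CPM, 89.9 to 205). Tgfb1, an immunosuppressive cytokine gene, was at 224 against 89 CPM, and Tnf, which encodes tumor necrosis factor, at 63.5 against 11.1 CPM. The 50 CPM minimum fixed the calls of Tnf, of Tnfsf11, seen in 1 naive-like cell, and of Il17a and Ifng, seen in 0. Glycolysis genes were called higher in 6 of 11 cases, with the glycolytic enzyme gene Gapdh at 798 against 317 CPM and Hif1a, the hypoxia-induced factor, at 313 against 94.5 CPM. Immediate-early and NR4A genes, which follow receptor signals, were called higher in 5 of 13 cases, with Nr4a1 at 410 against 156 CPM. Genes of the T cell receptor complex and its proximal kinases were close, with 1 of 11, the kinase gene Zap70, called higher. Of 5 interferon response genes 1 was called higher and 1 lower, a share of higher calls near that over all genes.

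Helper genes of several programs were present side by side. Against naive-like cells 7 of 7 compared Th17 genes, 5 of 6 Th1 genes, 2 of 2 Th2 genes, 6 of 6 regulatory genes other than Foxp3 and 1 of 3 Tfh genes were called higher, with 0 lower in each, beside 19.3% higher over all genes. All 7 Th17 genes reached 50 CPM in members alone. In naive-like cells 4 of them had 0 UMIs, and Rora, Tmem176b and Ahr had 1 or 2. Genes that enter in this way are called higher by the minimum itself, so that count carries no weight of its own. The Th1 and regulatory lists each held 1 gene at 0 UMIs in naive-like cells. Others were seen in only 1 or 2 naive-like cells: Cxcr3 and Nkg7 (Th1), Il1rl1 (Th2), and Nrp1 and Tnfrsf1b (regulatory). They were compared only because members reached 50 CPM, so the counts of these lists carry little weight either. The Th1 count includes Ccl5, a chemokine gene of which 1 cell held 41 of 70 UMIs. Without that cell it was at 42.1 CPM against 33.4 CPM in naive-like cells, short of a call. The median log2 ratios of the Th17, Th1, Th2, regulatory and Tfh lists were 3.71, 2.32, 2.04, 2.29 and 0.09. With genes at 0 UMIs in naive-like cells set at their lower bound, the Th1 median was 1.94 and the other medians stayed at these values. Rora, which encodes ROR alpha, had 250 UMIs in 121 members (361 CPM, 317 to 408) and 2 UMIs in naive-like cells (11.1 CPM, 1.35 to 40.2). Maf was at 342 CPM in members and 16.7 CPM in naive-like cells. The Tfh genes Bcl6 and Cxcr5 were caught in only 10 and 2 members.

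IL-17 transcripts were the clearest helper cytokine signal. Il17a had 188 UMIs in 48 members (271 CPM, 234 to 313) and 0 UMIs in naive-like and in Foxp3 cells, at least 16.3-fold higher than in naive-like cells. Il17f, which encodes the partner of IL-17A in the shared heterodimer, had 72 UMIs in 25 members (104 CPM, 81.3 to 131) and was at least 6.23-fold higher. Among the 48 Il17a-positive members the counts ran from 1 to 44 with a median of 2, 15 cells had a single UMI, and without the highest cell the level was 208 CPM. Il22, another cytokine of Th17 cells, had 33 UMIs in 11 members, 12 of them in 1 cell. Il17a lies on chromosome 1 at bases 20730905 to 20734496 on the plus strand and Il17f at 20777146 to 20790617 on the minus strand (mm10, GENCODE vM21), 42650 bases apart. Both promoters are shown because the genes were often detected in the same members (16 of the 48 Il17a-positive and of the 25 Il17f-positive cells had both). The 250 bases before each RefSeq start (GRCm38.p6, 5′ to 3′ along the gene) are printed with capitals on AGGTCA, the half-site that ROR alpha binds, read on either strand, and on the TATAAA box.
Il17a, chr1:20730655-20730904, plus strand: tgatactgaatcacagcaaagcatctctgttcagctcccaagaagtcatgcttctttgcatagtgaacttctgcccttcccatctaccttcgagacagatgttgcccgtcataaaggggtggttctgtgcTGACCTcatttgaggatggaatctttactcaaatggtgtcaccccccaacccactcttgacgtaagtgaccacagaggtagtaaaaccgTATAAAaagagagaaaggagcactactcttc
Il17f, chr1:20784271-20784520, minus strand: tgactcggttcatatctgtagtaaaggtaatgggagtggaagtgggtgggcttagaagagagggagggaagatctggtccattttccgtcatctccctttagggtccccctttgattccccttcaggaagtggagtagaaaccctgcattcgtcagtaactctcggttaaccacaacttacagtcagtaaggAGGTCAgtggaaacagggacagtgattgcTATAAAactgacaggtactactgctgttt
Each window held 1 AGGTCA match, on the minus strand at -120 in Il17a and on the plus strand at -58 in Il17f, counted from the first base of the match to the start. Each also held 1 TATAAA match, at -31 and -29. The AP-1 motif TGACTCA, searched on both strands, had 0 matches in either. Over all 32851 promoter windows of the table the same letters were found in 14%, 12.4% and 4.46% respectively, so a match is common and describes the letters only.

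Tmem176a and Tmem176b, neighbouring genes of membrane proteins often seen in IL-17-producing cells, followed the IL-17 genes. Tmem176a had 235 UMIs in 104 members (339 CPM, 297 to 385) and 0 in naive-like cells, at least 20.3-fold higher. Tmem176b had 185 UMIs in members and 2 in naive-like cells. On chromosome 6 (mm10) Tmem176a lies at 48840919 to 48847071 on the plus strand and Tmem176b at 48833818 to 48841496 on the minus strand, an overlap of 578 bases. Ccr6, the receptor for CCL20, had 56 UMIs in 43 members, and Ahr, the aryl hydrocarbon receptor, 45 UMIs in 38.

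Detection per cell was compared after thinning every cell to 1000 UMIs, which kept 257 members, 97 naive-like, 59 Foxp3, 103 CD8 and 874 B cells. Il17a was then found in 13.6% of members (9.67 to 18.4) and 18.1% unthinned, in 0 of 97 naive-like cells and 0 of 59 Foxp3 cells, which allow shares of up to 3.09% and 5.08%, in 7.77% of CD8 cells and in 0 of 874 B cells, which allows up to 0.343%. Tmem176a was found in 25.7% of members (39.2% unthinned) and 2.17% of B cells, Rora in 27.6% (45.7%) and 0 of 874 B cells, and Maf in 31.5% (51.3%) and 0.915% of B cells. Ccr6, which B cells use themselves, had shares of 7.39% in members and 6.75% in B cells. At least 2 Th17 genes were seen in 32.3% of members (26.6 to 38.4), 0 of 97 naive-like cells, 10.2% of Foxp3 cells, 24.3% of CD8 cells and 0.915% of B cells. For the Th1 list the shares were 15.6% in members, 5.08% in Foxp3 cells, 35.9% in CD8 cells and 0.458% in B cells, for the Tfh list 13.6%, 6.78%, 0.971% and 2.29%, and for the regulatory list 26.8%, 66.1%, 16.5% and 1.49%. The Th2 list was seen in 5.45% of members, 3.39% of Foxp3 cells and 0 of 874 B cells. Thinning is a random draw, and over 20 repeat draws the Th17 share of members ran from 31.1% to 35.8% and the Th1 share from 12.5% to 17.9%. The shares grew with depth, to 49.4% for Th17, 34.3% for Th1 and 51.7% for regulatory genes without thinning. The order of the Th17 and regulatory lists was thus not the same at both depths. The order of groups also changed for some lists. Unthinned, the Th2 list was seen in 12.8% of members and 34.4% of the deeper Foxp3 cells, and the Tfh list in 26.8% and 37.7%. The Th17 list was then seen in 49.4% of members and 49.5% of CD8 cells. For these pairs the thinned intervals overlapped, so neither group is read as higher. The Th1 and regulatory lists kept their order against Foxp3 and CD8 cells.

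**Figure D3:**
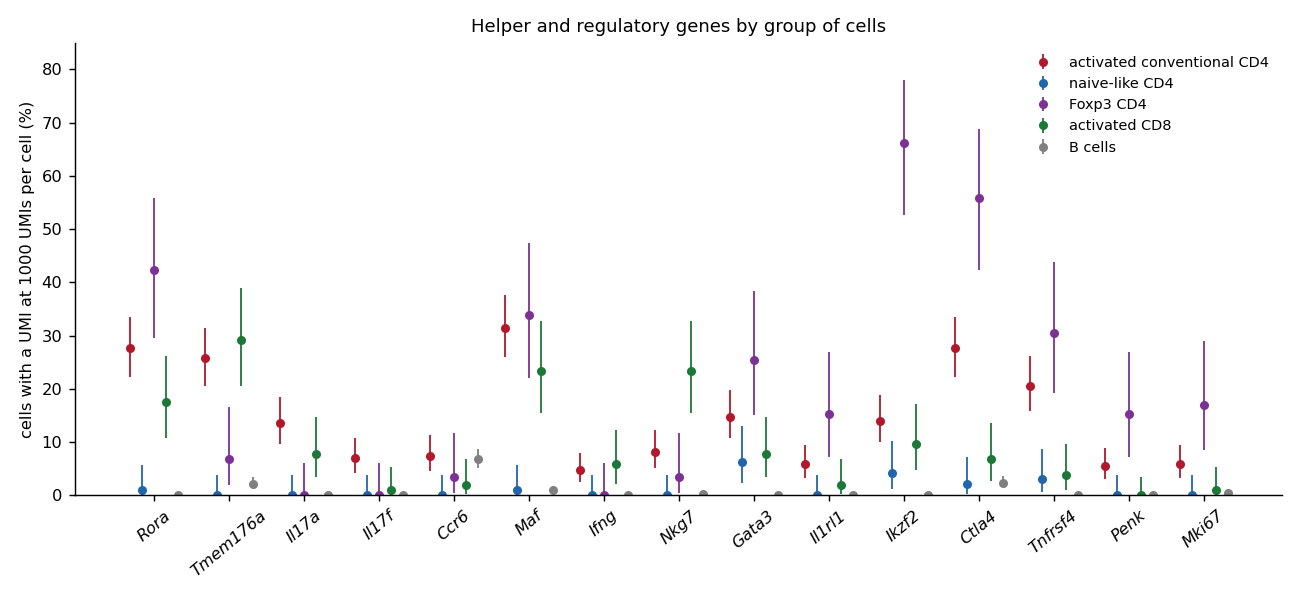
Share of cells with a UMI of each gene (y axis, percent, every cell thinned to 1000 UMIs) in 5 groups of cells, with exact binomial 95% intervals. Il17a and Il17f were seen in activated CD4 and CD8 cells and in 0 naive-like or Foxp3 cells; Ikzf2 stood at 66.1% in Foxp3 cells and 14% in members.

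Il17a was also present in T cells outside the members. Of the 1343 activated Cd3 cells without a Cd4, Cd8 or Foxp3 UMI, 244 had Il17a (18.2%, 16.1 to 20.3; median depth 1765 UMIs), against 48 of 265 members (18.1%, 13.7 to 23.3). The gamma-delta receptor gene Trdc was seen in 16.8% of those cells and in 3 of 265 members (1.13%). Among the 48 Il17a-positive members 43 had an alpha-beta UMI, 5 had a gamma-delta UMI and 0 had gamma-delta UMIs only.

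Within the members, Il17a-positive cells differed from the other 217 in a set of genes, although their median depth was close (1981.5 and 2039 UMIs). Il17f was seen in 33.3% against 4.15%, Tmem176a in 83.3% against 29.5%, Tmem176b in 77.1% against 27.6% and Ccr6 in 39.6% against 11.1%. Furin, a proprotein convertase, was seen in 64.6% against 33.6%, and Cxcr6 in 58.3% against 27.2%. The other direction held genes of other programs: Il1rl1, the IL-33 receptor, in 0 of 48 against 14.3%, Gata3 in 12.5% against 30%, Tnfrsf18 in 18.8% against 42.9% and the proliferation marker Mki67 in 4.17% against 13.8%. Pdcd1 was seen in 12.5% against 24%. Cxcr6 and Pdcd1 are entry genes, so their shares among members depend on the rule and are not read as traits of these cells. These splits were drawn on the same counts and describe the members without a test.

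A smaller set carried Il1rl1. It had 69 UMIs in 31 members (99.5 CPM) and 1 UMI in naive-like cells. Of these 31 cells, 19 had Ikzf2, the factor Helios found in regulatory T cells (61.3% against 17.1% of the other members), 19 had Gata3 (61.3% against 22.2%), 16 had Il2ra (51.6% against 13.2%) and 11 had Areg, the growth factor amphiregulin (35.5% against 6.41%). Il17a and Sh2d1a, an adaptor of Tfh cells, were in 0 of 31, Tmem176a in 6.45% against 43.6% and Tcf7 in 3.23% against 26.5%. The Th2 cytokine genes themselves were scarce: Il4 had 8 UMIs in 6 members, Il13 6 UMIs in 4 and Il5 0. Ikzf2 was seen in 59 members with up to 10 UMIs, and those cells had Ctla4 in 69.5% against 40.8%, Tnfrsf18 in 64.4% against 31.1% and Tnfsf8, the CD30 ligand, in 16.9% against 55.3%. Foxp3 was 0 in every member by the rule, and where it was detected it was sparse, with 101 UMIs over the 61 Foxp3 cells.

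Penk marked another set. This gene of the opioid precursor proenkephalin had 174 UMIs in 21 members (251 CPM, 215 to 291), 0 in naive-like and CD8 cells and 37 UMIs in Foxp3 cells (173 CPM), and was at least 15-fold higher than in naive-like cells. The share of cells with Penk was higher in Foxp3 cells, at 16.4% against 7.92% of members unthinned and 15.3% (7.22 to 27) against 5.45% (3.01 to 8.97) thinned, where the intervals overlap. Counts per positive cell ran from 1 to 34 with a median of 5. Penk-positive members had Cd200 in 66.7% against 14.8%, the inhibitory receptor gene Lag3 in 47.6% against 2.87%, Nkg7, a granule protein gene of cytotoxic cells, in 47.6% against 8.61%, Pdcd1 in 52.4% against 19.3% and Tnfrsf18 in 90.5% against 34%. Pdcd1 is an entry gene, so its share depends on the rule and is not read as a trait of these cells. Klf2 was in 4.76% against 34.4%, and Il17a, Il17f and Cd40lg, the CD40 ligand, were in 0 of 21. These cells were deeper, with a median of 2710 UMIs against 1964.

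Interferon gamma transcripts were found in 20 members. Ifng had 44 UMIs, 1 to 4 per cell (63.5 CPM), and 0 in naive-like and Foxp3 cells. Ifng-positive members had Nkg7 in 60% against 7.76%, Cd200 in 50% against 16.3%, Lag3 in 30% against 4.49% and Tbx21, the Th1 factor T-bet, in 20% against 2.04%. Penk was in 4 of the 20 Ifng-positive cells, which is 20% of these and 19% of the 21 Penk-positive cells. Il17a was in 2 (10% of the Ifng-positive and 4.17% of the Il17a-positive cells), while 0 members had Il17a with Penk and 0 had Il17a with Il1rl1. Il21, a cytokine of Tfh cells, was seen in 8 members.

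**Figure D4:**
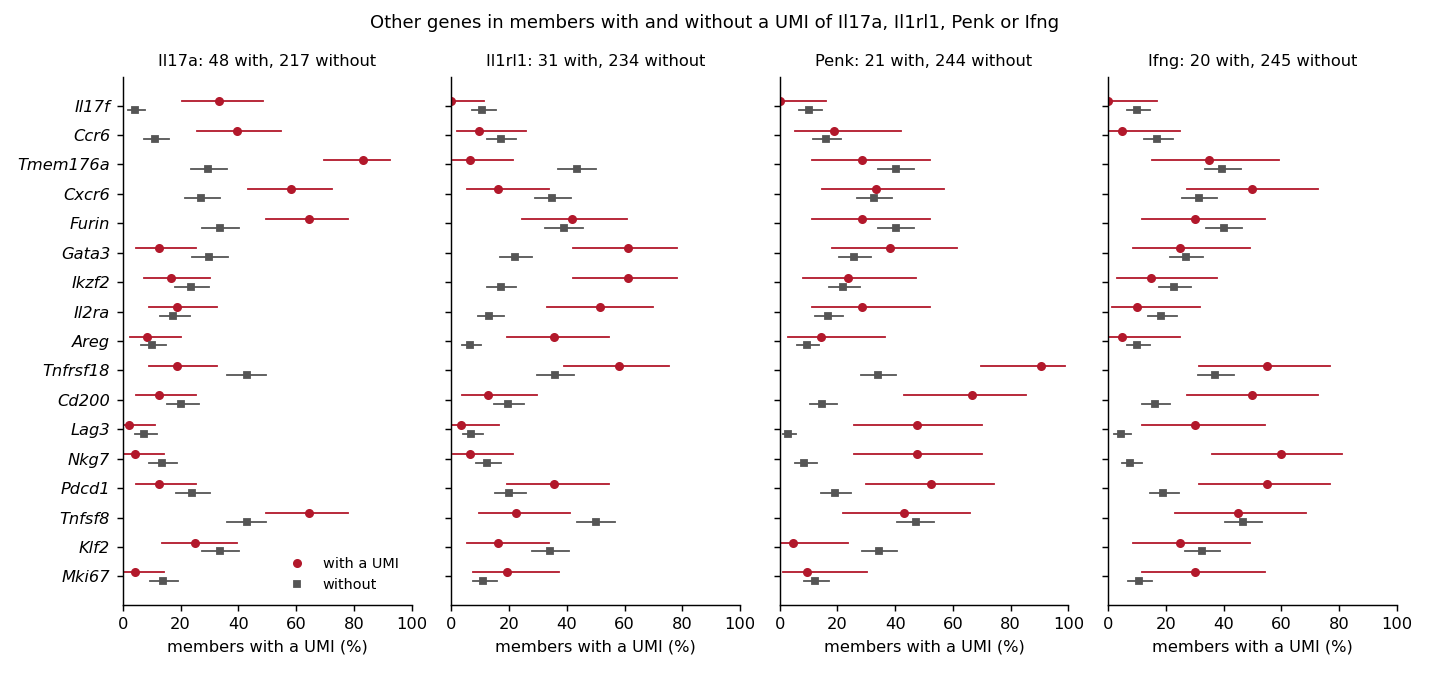
Share of members with a UMI of each listed gene (x axis, percent, not thinned) among members with a UMI of Il17a, Il1rl1, Penk or Ifng (red circles) and among the other members (grey squares), with exact binomial 95% intervals. Il17f, Ccr6, Tmem176a and Furin were higher in share with Il17a, Gata3, Ikzf2, Il2ra and Areg with Il1rl1, and Cd200, Lag3 and Nkg7 with Penk and with Ifng. Cxcr6 and Pdcd1 are entry genes of the rule, and nothing is read from their shares.

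Members were also described by the entry genes Pdcd1 and Cxcr6, both of which the rule used, so nothing is read from how often they met: 14 members had both, 44 had Pdcd1 and no Cxcr6, and 73 had Cxcr6 and no Pdcd1 (median depth of the latter groups 2084 and 2047 UMIs). The Pdcd1 cells had Cd200 in 45.5% against 8.22%, Tox in 52.3% against 16.4%, Lag3 in 20.5% against 4.11% and Ikzf2 in 29.5% against 12.3%. The Cxcr6 cells had Tmem176a in 68.5% against 20.5%, Il17a in 35.6% against 9.09% and Il17f in 21.9% against 2.27%. The Cre reporter transcript TdTomato was in 45.5% of the Pdcd1 cells and 24.7% of the Cxcr6 cells, and its part in the difference was not tested.

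Some members carried transcripts of dividing cells. Mki67 had 112 UMIs in 32 members (162 CPM) and 2 UMIs in naive-like cells (11.1 CPM), with a thinned share of 5.84% in members (3.3 to 9.44), 16.9% in Foxp3 cells (8.44 to 29), 0.971% in CD8 cells and 0.458% in B cells. At least 2 cell-cycle genes were seen in 19.8% of members and 27.1% of Foxp3 cells after thinning, with overlapping intervals (15.1 to 25.3 and 16.4 to 40.3). Of 8 compared cell-cycle genes 4 were called higher than in naive-like cells, beside 19.3% over all genes. The 50 CPM minimum fixed the calls of Mki67 and of Tyms, seen in 1 naive-like cell.

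Against Foxp3 cells the question was which genes separated the members from regulatory T cells, which are activated cells themselves. Il17a, Il17f, Ccr6, Tmem176a and Tmem176b were higher in members, while Ikzf2, Il2ra, Il1rl1, Areg and Tnfrsf4 were lower. Of 3016 genes compared, 125 (4.14%) were called higher and 126 (4.18%) lower, and with TMM scaling, which raised every ratio, 171 and 88. Thinning each cell to 1000 UMIs before summing gave 384 and 575, so these counts depended on both settings. In the Th17 list 5 of 7 were called higher. Of these Il17a and Il17f had 0 UMIs in Foxp3 cells, so the 50 CPM minimum fixed their calls. In the regulatory list 0 of 9 were called higher and 4 lower. Ikzf2 was at 265 CPM in members and 1470 CPM in Foxp3 cells (log2 ratio -2.43), and Il1rl1 at 99.5 against 261 CPM (-1.31). Tbc1d4, a regulator of glucose transporter traffic, was at 192 against 9.33 CPM and Tnfsf8 at 519 against 131 CPM. Klrg1, an inhibitory receptor of differentiated lymphocytes, was at 43.3 against 303 CPM. Rora and Maf were close, at 361 against 383 CPM and 342 against 457 CPM. The lowest ratios belonged to the stromal genes Mgp, Dcn, Sparc, Col1a1, Bgn, Col1a2, Sparcl1 and Eln, with Mgp at 2.89 CPM in members and 2020 CPM in Foxp3 cells. Summed over the 5 endothelial markers the level was 205 CPM in Foxp3 cells (4 detected, Kdr at 0) and 69.2 CPM in members (5 detected). Epithelial and macrophage transcripts (Scd1, Sftpb, Sftpc, Sftpa1, Chil3) and TdTomato took 6 of the 10 highest ratios. The part of RNA of other cells in this comparison was not tested.

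Against activated CD8 cells, gated on the same entry sum, fewer genes were called. Of 2855 genes compared 97 (3.40%) were called higher and 51 (1.79%) lower, with TMM scaling 76 and 67, and with cells thinned before summing 344 and 150. Penk, Cd200 and Nrgn were among the 10 highest beside 7 epithelial genes (Scd1, Sftpc, Sftpb, Slc34a2, Sftpa1, Cxcl15, Sfta2), and the lowest were Xcl1, a chemokine of CD8 and NK cells (2.89 against 271 CPM), and Ccl5, a chemokine of cytotoxic cells (101 against 2080 CPM). Of the cytotoxic list 4 of 4 compared genes were called lower, with Gzma at 26 against 278 CPM and Nkg7 at 199 against 442 CPM. In the Th17 list 3 of 7 were called higher, namely Il17a (271 against 114 CPM), Il17f (104 against 20.1 CPM) and Ccr6 (80.8 against 23.5 CPM), while Tmem176a was at 339 against 402 CPM. Of the list of inhibitory receptors and linked genes, Ctla4, Tox and Cd200 were called higher, with Ctla4 at 424 against 101 CPM. In the S100, annexin and cytoskeleton list 0 of 20 genes were called in either direction. Genes of antigen-presenting cells (Ccl17, Mgl2, Fscn1, H2-Eb1, Il1b) were among the lowest 10, and the 11 myeloid markers, all detected in both groups, summed to 3470 CPM in members and 6140 CPM in CD8 cells. Their part in these differences was not tested.

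Against all other filtered cells 221 of 3203 genes (6.90%) were called higher and 503 (15.7%) lower. T cell genes led, which follows from the rule, because members needed Cd3 and Cd4 UMIs and most other cells had no Cd3 UMI. Called higher were 9 of 11 compared genes of the receptor complex and its kinases and 11 of 12 activation genes. In the list of inhibitory receptors and linked genes 4 of 4 were called higher. Penk (251 against 5.35 CPM), Tnfsf8 (519 against 38 CPM), Ctla4 (424 against 34.9 CPM) and Il17a (271 against 25.3 CPM) had the largest ratios. All 9 compared myeloid and 6 epithelial markers were called lower.

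Transcripts that mark other cell types were present in some members. At least 10 UMIs of a B cell, myeloid, neutrophil, epithelial or endothelial list or of the macrophage gene Chil3 were found in 21 of 265 members (7.92%, median 5279 UMIs against 1940.5 for the rest) and in 4 of 103 naive-like, 7 of 61 Foxp3 and 12 of 105 CD8 cells. Epithelial markers had a UMI in 54 members (20.4%), all 6 were detected, and 3 cells held 93.8% of the 1124 UMIs. In the surfactant genes Sftpc and Sftpb, the fatty acid desaturase gene Scd1 and the phosphate transporter gene Slc34a2, which mark alveolar type II cells, 2 cells held 92.1%, 97.6%, 97.5% and 98.6% of the members' UMIs. These 4 genes were among the 15 highest against naive-like cells. With the mixed cells, which were defined in part by these markers, left out of both groups their log2 ratios were 0.23, -0.38, 1.25 and 0, while those of Il17a, Tmem176a and Penk were 4.98, 5.23 and 4.78 against 4.81, 5.13 and 4.71 with all cells. B cell markers had a median of 0 and at most 7 UMIs per member, with Ighd at 0. The tumor reporter TdTomato had 185 UMIs in 70 members (267 CPM) and 158 CPM in B cells. With the mixed cells left out it had 88 UMIs in members (151 CPM) and 138 CPM in naive-like cells, a log2 ratio of 0.12. GFP had 0 UMIs, and Stk11 itself had 15 UMIs in 14 members (21.6 CPM, 12.1 to 35.7), so the state of the Lkb1 allele in these cells was not detectable at this depth.

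**Figure D5:**
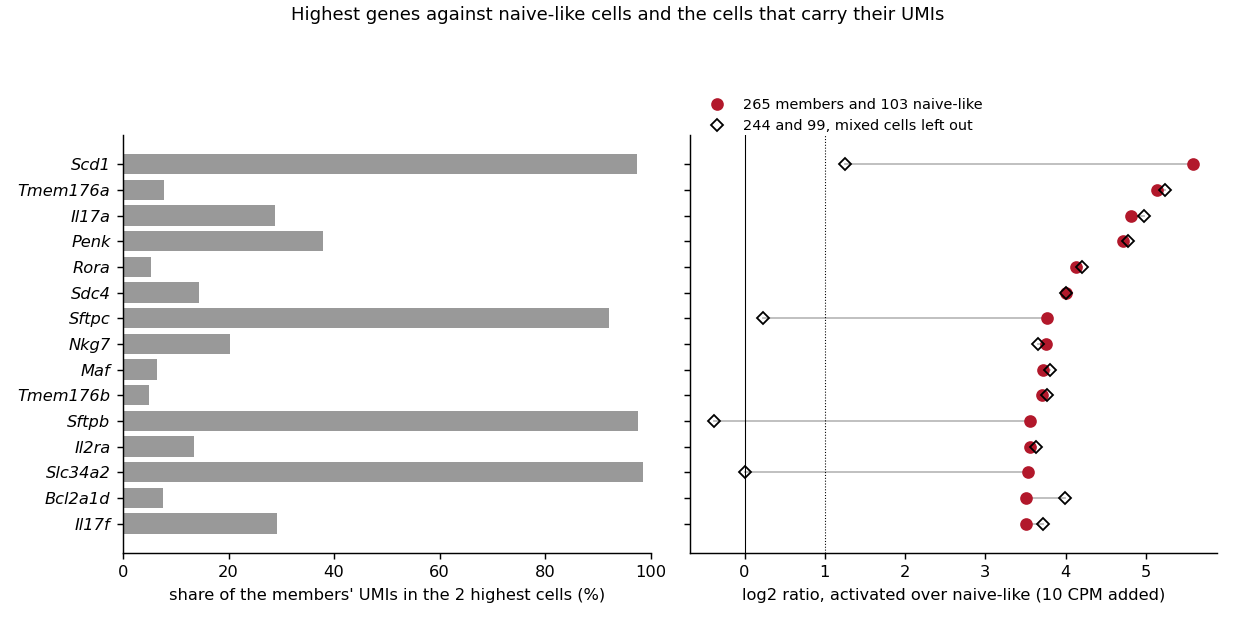
Left, share of the members' UMIs held by the 2 highest cells for the 15 genes with the largest ratio over naive-like cells (x axis, percent). Right, log2 ratio of activated over naive-like cells with 10 CPM added, with all cells (red circles) and with mixed cells left out (open diamonds); Scd1, Sftpc, Sftpb and Slc34a2 moved to 1.25 or below and the other 11 genes stayed at 3.63 or above.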

How the data were processed

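Viable (DAPI-negative) cells sorted from lung tumors of 4 mice were profiled with 3′ droplet chemistry, with a recovery target of 8000 cells per the labels. The authors processed reads with Cell Ranger 3.0.2 on mm10 and deposited raw UMI counts per gene and cell as 1 pooled matrix, whose columns carry neither barcode nor mouse. The authors' counts were used as deposited, with no annotation release named in the labels or methods.

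From these counts cells with at least 200 genes and at most 13.4% mitochondrial UMIs (the 98th percentile) were kept. UMIs were summed per group and scaled to 1000000 (CPM), with exact Poisson 95% intervals, exact binomial (Clopper-Pearson) intervals for shares, and exact conditional intervals for ratios without the added 10 CPM. These cover counting error only and are too narrow where few cells hold many UMIs. Genes at 50 CPM in either group were compared, outside gating, mitochondrial, immunoglobulin and T cell receptor variable genes. A count of 0 was given a limit of 3 UMIs over the group. Shares were taken after thinning to 1000 UMIs (1 random draw per cell) and also unthinned. Scrublet in scanpy 1.11.5 (expected rate 6%) called 181 of 20299 scored cells (0.892%) and 1 of 265 members, and no cell was removed by it. The code for ratios, their intervals and calls was tested on simulated group totals. Thinning was checked on the real counts, for a total of 1000 UMIs per cell.

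Members, gates and gene lists were chosen with earlier results of these data known, and the splits of members by single genes were chosen after their values were seen. Named genes were those of the lists and gates, the 15 with the largest ratio per direction against naive-like cells and 10 against each other group. Further genes were named after their values were seen. Some genes of the gates and lists are not reported here. Alternatives varied the entry sum, filters, added CPM, thinning, scaling (TMM in edgeR 4.0.16, R 4.3.3) and reference cells. Leaving out the cells with much RNA of other types was added after the data were seen. Promoters came from RefSeq (GRCm38.p6) and gene positions from GENCODE vM21 (mm10). Python 3.11.15, numpy 2.4.6, scipy 1.17.1 and pandas 2.3.3 were used.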

Additional observations from a re-analysis of the deposited data

How the results depend on the processing

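No paired analysis was possible because the cells carry no mouse, and for the same reason no setting leaves out a replicate. Depth limits the scarce transcripts (Cd4, Foxp3, Stk11), and each count of genes depended on where its thresholds were set.

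With an entry sum of 1, the share of members among filtered cells was 1.84%, 60 genes were higher than in CD8 cells and 25% of members had at least 2 Th17 genes. With a sum of 3 the share was 1.08%, with 84 genes lower than in CD8 cells. The share was 1.62% with S100a4 left out (a sum of 1 over the other genes) and 1.54% with a minimum of 500 genes. Adding 1 CPM gave 153 genes higher and 79 lower than in CD8 cells. Adding 50 CPM gave 209 higher and 31 lower against naive-like, 37 and 35 against Foxp3, and 27 and 21 against CD8 cells. A minimum of 100 CPM gave 269 and 46, 49 and 50, and 38 and 24 in the same order, and one of 20 CPM gave 1155 and 208, 379 and 307, and 290 and 133. Thinning before summing gave 165 lower than in naive-like cells, 384 and 575 against Foxp3 and 344 and 150 against CD8 cells. TMM scaling gave 319 and 176 against naive-like cells, and all cells with an entry sum of 0 as the reference gave 312 and 57. Thinned to 500 UMIs, the shares with at least 2 genes were 6.04% for Th1, 0.755% for Th2, 15.5% for Th17, 2.64% for Tfh and 15.1% for regulatory genes. At 2000 UMIs they were 27.9% for Th1, 42.6% for Th17, 51.5% for regulatory and 8.82% for innate-like genes. Without thinning they were 34.3% for Th1, 12.8% for Th2, 49.4% for Th17, 26.8% for Tfh, 51.7% for regulatory and 7.92% for innate-like genes. With the mixed cells left out, an alternative chosen after seeing the data, the log2 ratio of Sftpb over naive-like cells reversed to -0.38. The cause was not tested. The remaining 127 shares and counts of genes stayed within their interval or within 1.5 times of their value. Of the values of single genes and medians 1030 stayed in that range, 119 moved out of it, and 1 with a main ratio of 2-fold or more changed sign. Changes of sign in smaller ratios were not counted. Stmn1 kept a 2-fold ratio in 12 of 17 alternatives, S1pr1 in 14 and Gata3 in 15.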
